A study of Sus scrofa with 12 samples.

Results

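The genes of 9 complement components, C1QA, C1QB, C1QC, C1R, C1S, C3, C7, CFD and CFB, were examined in the infarcted pig heart. They were chosen by name, with earlier results of these data known. All 9 had an Ensembl identifier among the 35682 genes counted, and 8 of them, all but CFB, had enough counts to be tested. No inhibitor is among the 9, so the inhibitors and receptors are given with the other complement genes. RNA came from 6 female Yorkshire pigs, 10 to 12 weeks old at the start, with 1 border zone library (the section next to the infarct) and 1 remote zone library (the posterior wall) from each animal, so that n = 6 in each region. In all 6 the left anterior descending coronary artery was occluded by a balloon for 60 min and then reperfused. Tacrolimus at 0.75 mg/kg/day, mycophenolate mofetil at 500 mg/day and prednisolone at 20 mg/day were started on day 9 after the injury. At thoracotomy on day 14 the animals received either scaffold-free vascular organoids made of human endothelial progenitor cells and smooth muscle cells, or fibrin glue as the control, and hearts were harvested 28 days later. The labels do not give the treatment of each animal, so treatments were not compared and each region is pooled over them. The region was taken from the sample titles, since the protocol text of all 12 libraries speaks of border zone tissue.

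Complement is a cascade of plasma proteins that marks cells and debris for removal and can open pores in membranes. In the classical pathway, C1q binds its target, the proteases C1r and C1s are activated on it, and cleavage of C4 and C2 leads to cleavage of C3, the point at which all pathways meet. The alternative pathway amplifies this step with factor B and factor D, and the terminal components, among them C7, assemble into the membrane attack complex. The liver makes most of these proteins in plasma, but tissue macrophages are a well known source of C1q, and fibroblasts and fat cells also make several components.

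The 3 C1q chain genes lie next to each other on the plus strand of chromosome 6 of Sscrofa11.1 (RefSeq annotation), in the order C1QA (chr6:80586259-80589213), C1QC (chr6:80592591-80597464) and C1QB (chr6:80601680-80606076), within 19818 bases. C1R (chr5:63644097-63655149, plus strand) and C1S (chr5:63670309-63681466, minus strand) face each other across 15159 bases. C3 (chr2:72431470-72471622), C7 (chr16:25846860-25902707) and CFB (chr7:24034077-24040523) are on plus strands, and CFD (chr2:77509792-77511988) is on the minus strand. The Ensembl identifiers are ENSSSCG00000003524 for C1QA, ENSSSCG00000033512 for C1QB, ENSSSCG00000038706 for C1QC, ENSSSCG00000060530 for C1R, ENSSSCG00000055651 for C1S, ENSSSCG00000013551 for C3, ENSSSCG00000016859 for C7, ENSSSCG00000013418 for CFD and ENSSSCG00000024914 for CFB. The RefSeq model of C7 is marked as partial. No exon of the 9 genes shared bases with an exon of another RefSeq gene, which matters here because the libraries did not keep the strand.

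The 250 bases before the RefSeq start are shown for C1R and C1S, the members with the most similar levels over the libraries, and for C1QC and CFD, the other members in which a searched motif was found. Both strands were searched for the PU.1 core GAGGAA, the STAT element TTCNNNGAA, the NF-kappaB element GGGANTTTC and the C/EBP element TTGCNNAA, and capitals mark the matches.
C1R, chr5:63643847-63644096, plus strand: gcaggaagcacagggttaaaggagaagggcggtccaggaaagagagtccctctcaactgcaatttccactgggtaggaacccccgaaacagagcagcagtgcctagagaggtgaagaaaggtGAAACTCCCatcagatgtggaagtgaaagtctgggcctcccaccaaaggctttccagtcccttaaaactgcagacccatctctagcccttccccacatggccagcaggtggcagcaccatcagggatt
C1S, chr5:63681467-63681716, minus strand: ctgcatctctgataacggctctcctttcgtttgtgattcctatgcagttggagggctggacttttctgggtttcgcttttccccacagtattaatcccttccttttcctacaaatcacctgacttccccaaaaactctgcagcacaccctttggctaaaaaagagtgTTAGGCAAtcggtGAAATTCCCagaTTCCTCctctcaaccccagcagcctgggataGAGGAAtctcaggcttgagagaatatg
C1QC, chr6:80592341-80592590, plus strand: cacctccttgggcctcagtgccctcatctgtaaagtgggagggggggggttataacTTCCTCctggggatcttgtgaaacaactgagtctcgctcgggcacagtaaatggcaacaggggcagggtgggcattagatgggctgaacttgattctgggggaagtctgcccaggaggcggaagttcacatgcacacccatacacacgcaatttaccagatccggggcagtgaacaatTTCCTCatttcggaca
CFD, chr2:77511989-77512238, minus strand: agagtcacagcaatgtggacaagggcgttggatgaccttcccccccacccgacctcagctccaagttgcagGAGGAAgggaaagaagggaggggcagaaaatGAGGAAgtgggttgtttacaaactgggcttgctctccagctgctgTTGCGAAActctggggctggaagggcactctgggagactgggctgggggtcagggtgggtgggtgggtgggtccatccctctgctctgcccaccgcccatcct
The NF-kappaB letters were found before both C1R and C1S, and in 1.05% of 19556 such stretches of protein-coding genes. The PU.1 core, before C1QC, C1S and CFD, was in 22% of them, and the C/EBP letters, before C1S and CFD, in 8.22%. None of the letters were found before C1QA, C1QB, C3, C7 or CFB, and the STAT letters, present in 6.12% of all stretches, were before none of the 9. Only these exact letters were searched, so another form of a site would be missed. A match is only a run of letters in this window.

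Library totals over genes ran from 15130210 to 31618680 counts. Levels are in CPM, the count divided by the TMM-scaled library total and multiplied by 1000000. The heart label was borne out by the 11 cardiomyocyte markers with an identifier, which summed to 13017 to 73155 CPM in the border zone and, in the remote zone, to 61827 to 101340 CPM. In 2 animals the border zone library stood apart. That of animal 1022 had the lowest sum of cardiomyocyte markers, below its own fibroblast and matrix markers at 68822 CPM, and that of animal 3622 listed 28024 genes with at least 1 count from the smallest total, against at most 20148 in any other library. Values without animal 1022 are given beside most of the positive fold changes. Among 13844 genes tested with edgeR (quasi-likelihood, Benjamini-Hochberg), 287 (2.07%) had an adjusted p under 0.05, with 285 (2.06%) higher and 2 (0.0144%) lower in the border zone. The labels name the animals, so the libraries within a region are separate animals, and PCR copies of a molecule were not told apart.

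Of the 8 complement members tested, 0 passed the edgeR threshold, against 2.07% of all genes (2.06% higher and 0.0144% lower in the border zone). With the animal as a block, 0 of 8 passed as well, against 0.296%. At an unadjusted p under 0.05 the same test passed 7 of the 8, all higher in the border zone, against 24.7% of all genes. The median log2 fold change of the 8 was 1.47, against 0.04 over all genes tested. The C1q chains varied together, as did C1R and C1S, so these are not 8 independent results. Without animal 1022 the median was 0.73, and 4 of 8 were under an unadjusted p of 0.05 by edgeR, against 17.1% of all genes. By the Wald test of DESeq2, 4 of the 8 passed (C1QB, C1R, C1S and C7, all higher), against 10.2% of the genes with an adjusted p, and C3 was given no adjusted p by that test. With library totals in place of TMM, 6 of 8 passed (these and C1QC and C3), against 11.2% of all genes. In bulk tissue, more cells of a type cannot be told apart from more RNA per cell.

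**Figure D1:**
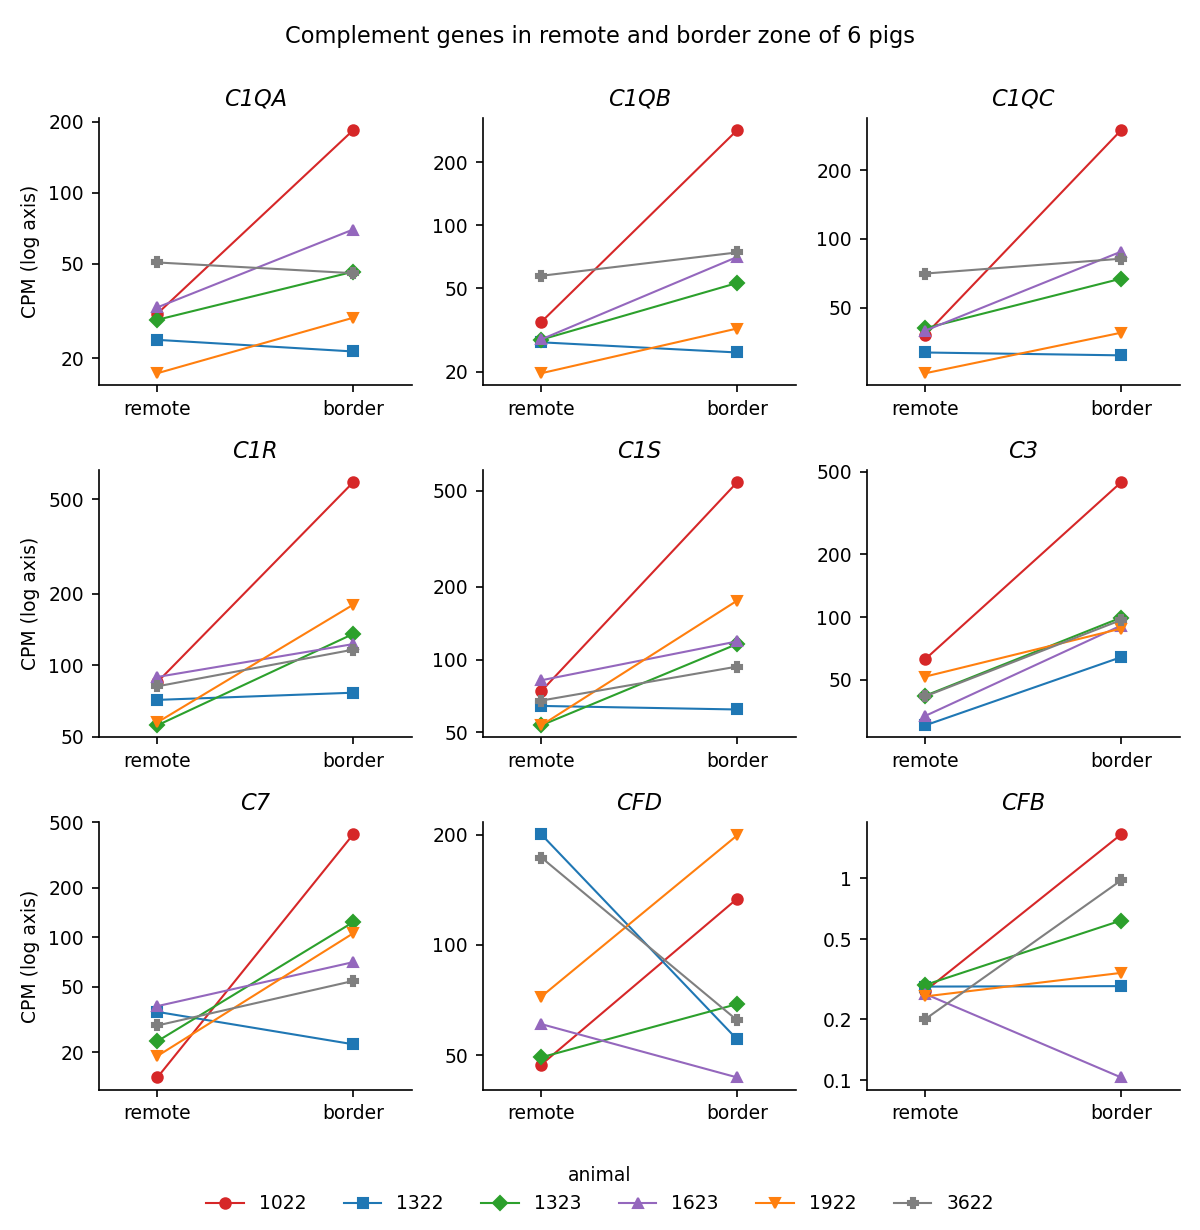
Level of the 9 complement genes in CPM (log axis) in the remote zone and border zone of 6 pigs. Each line joins both libraries of an animal. C3 was higher in the border zone of every animal, CFD was higher in 3 animals and lower in 3, and the border zone library of animal 1022 was the highest for every gene but CFD.

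The chains of C1q, the recognition molecule that binds antibody complexes and dying cells, were higher in the border zone of most animals but did not pass the threshold. C1QA was between 21.3 and 184 CPM in the border zone (median 46.0) and between 17.3 and 50.7 CPM in the remote zone (median 29.9). For C1QB the border zone libraries ran from 24.7 to 285 CPM (median 61.8) and the remote zone libraries from 19.6 to 57.4 CPM (median 28.5). The regions overlapped in both, since the border zone library of animal 1322 lay below the remote zone median. C1QC had 30.9 to 299 CPM in the border zone (median 74.4) and 25.8 to 70.5 CPM in the remote zone (median 38.8). The log2 fold change was 1.11 (SE 0.45) for C1QA, with an edgeR adjusted p = 0.158. For C1QB it was 1.46 (SE 0.52, edgeR adjusted p = 0.12), and for C1QC 1.30 (SE 0.48, edgeR adjusted p = 0.13). Within animals, C1QA was higher in 4 of 6 and the other chains in 5 of 6. The border zone library of animal 1022 held 46.3% to 52.8% of the summed border zone CPM of each chain. Without this animal the log2 fold changes of C1QA, C1QB and C1QC were 0.46, 0.65 and 0.55, with edgeR adjusted p = 0.523, 0.363 and 0.427.

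The proportion of the 3 chains varied less than their level, which for C1QB varied 11.5-fold between border zone libraries. The ratio of C1QC to C1QB was between 1.05 and 1.43 over the 12 libraries, and that of C1QB to C1QA between 0.871 and 1.62, highest in the border zone of animal 3622 and lowest in the remote zone of animal 1623. Per kilobase of RefSeq exon, the border zone median was 57.3 CPM for C1QC, 53.0 for C1QB and 29.7 for C1QA, with ranges that overlapped. Animal 3622 had the highest remote zone level of all 3 chains, at 50.7, 57.4 and 70.5 CPM for C1QA, C1QB and C1QC. It was the only animal in which C1QA was lower in the border zone (by 0.15 on the log2 scale) while C1QB and C1QC were higher (by 0.37 and 0.22).

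C1R and C1S, the proteases that C1q activates, followed each other most closely of all pairs of members. C1R had 76.6 to 588 CPM in the border zone (median 129) and 55.8 to 89.2 CPM in the remote zone (median 76.4). C1S had 62.1 to 542 CPM in the border zone (median 117) and 53.4 to 82.1 CPM in the remote zone (median 66.0). Their remote zone levels were the most even of the 8 tested members, with a highest library 1.60 and 1.54 times the lowest, and only animal 1322 had border zone levels within the remote zone range. The log2 fold change was 1.47 (SE 0.43) for C1R and 1.49 (SE 0.44) for C1S, with edgeR adjusted p = 0.0778 and 0.0810. Within animals C1R was higher in 6 of 6, as were 11.7% of all genes tested, and C1S in 5 of 6. Without animal 1022 the log2 fold changes were 0.82 and 0.82, with edgeR adjusted p = 0.111 and 0.138. The ratio of C1R to C1S was between 1.02 and 1.24 in all 12 libraries. After centring, their log2 CPM profiles differed by a root mean square of 0.094 over the 12 libraries, against 0.13 for C1QB and C1QC, the next pair, and 0.40 for C1R and C3, the closest pair that were not neighbours on a chromosome.

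C3, whose cleavage is shared by all pathways, was the only member whose border zone libraries all lay above the remote zone libraries. Its CPM was between 64.3 and 444 in the border zone (median 94.1) and between 30.3 and 63.0 in the remote zone (median 41.9), with no overlap, which held for 2.69% of all genes tested (1.99% with the border zone higher). The difference within an animal was 2.82 on the log2 scale in animal 1022, 1.44 in 1623, 1.24 in 1323, 1.21 in 3622, 1.08 in 1322 and 0.76 in 1922. Thus C3 was higher in 6 of 6 animals, as were 11.7% of all genes tested. Animal 1322, in which 6 of the 9 members were lower in the border zone, was among them. The log2 fold change was 1.75 (SE 0.44) with an edgeR adjusted p = 0.0514, just over the threshold, and 1.41 (SE 0.26) with the animal as a block, with an edgeR adjusted p = 0.0639. Without animal 1022 it was 1.14 and passed, with an edgeR adjusted p = 0.0104 and, with the block, 0.00212, in fits where 1.18% and 6.19% of all genes passed. Leaving out any other animal, C3 did not pass, with edgeR adjusted p from 0.0524 to 0.162.

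C7, which joins the terminal complex before the pore is formed, had the largest log2 fold change of the 8 tested members and varied more between animals. It had 22.3 to 422 CPM in the border zone (median 88.0) and 14.0 to 38.1 CPM in the remote zone (median 26.1). Animal 1022 had both the highest border zone and the lowest remote zone level, a difference of 4.90 on the log2 scale. The differences were 2.47 in animal 1922, 2.40 in 1323, 0.90 in 3622, 0.89 in 1623 and -0.65 in 1322, the only animal in which C7 was lower in the border zone. Its log2 fold change was 2.33 (SE 0.57) with an edgeR adjusted p = 0.0501, which missed the threshold, and 1.76 (SE 0.66) with the animal as a block, with an edgeR adjusted p = 0.127. C7 passed without animal 1322 (2.63, edgeR adjusted p = 0.0358), where 3.72% of all genes passed, and not without animal 1022 (1.38, edgeR adjusted p = 0.114). The ratio of C7 to C3 ran from 0.347 to 1.24 in the border zone and from 0.223 to 1.16 in the remote zone, so these genes did not keep a fixed proportion.

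CFD, the protease also called adipsin that cleaves factor B, did not share the direction of the other tested members. It was between 43.5 and 199 CPM in the border zone (median 65.6) and between 47.1 and 200.1 CPM in the remote zone (median 66.5), and the regions overlapped almost completely. Its log2 fold change was -0.0993 (SE 0.46) with an edgeR adjusted p = 0.917, an error wide enough to hold sizable differences in either direction. The sign was positive with library totals alone, and without animal 1322 or animal 3622. The differences within animals were positive in 1922 (1.46), 1022 and 1323, and negative in 1322 (-1.86), 3622 (-1.47) and 1623. The highest remote zone levels were those of animals 1322 (200.1 CPM) and 3622 (173 CPM), while the other remote zone libraries had at most 72.3 CPM. These 2 libraries also had the highest share of mitochondrial counts of all 12, 21.4% and 33.5% (13.6% to 14.7% in the other remote zone libraries), and the lowest TMM factors, 0.814 and 0.671. The part of this in the CFD levels was not tested. Per kilobase of exon CFD had the highest median level of the 9 genes in both regions, 58.8 CPM in the border zone and 59.7 CPM in the remote zone. In the border zone C1QC followed at 57.3, and the libraries of CFD overlapped those of every member but CFB. In the remote zone C1R followed at 31.1, and the lowest CFD library, at 42.3, was above the highest of C1R, at 36.3, while C1QB and C1QC still overlapped CFD.

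CFB, the factor that forms the alternative pathway enzyme with C3b, was close to absent from the counts. It had 3 to 50 counts per library, or 0.103 to 1.65 CPM in the border zone (median 0.479) and 0.201 to 0.296 CPM in the remote zone (median 0.272). The regions overlapped. The CPM was higher in the border zone of animals 1022, 1323, 1922 and 3622 and lower in that of 1623, while both libraries of animal 1322 had 6 counts. In animal 3622 this was 16 counts against 3, and its border zone library was the one that listed 28024 genes from the smallest total. With no filter on low counts its log2 fold change was 1.23 (SE 0.63), with an edgeR adjusted p = 0.196 over 30085 genes. C2, its neighbour on chromosome 7 and counterpart in the classical pathway, had higher levels and is described with the other complement genes.

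**Figure D2:**
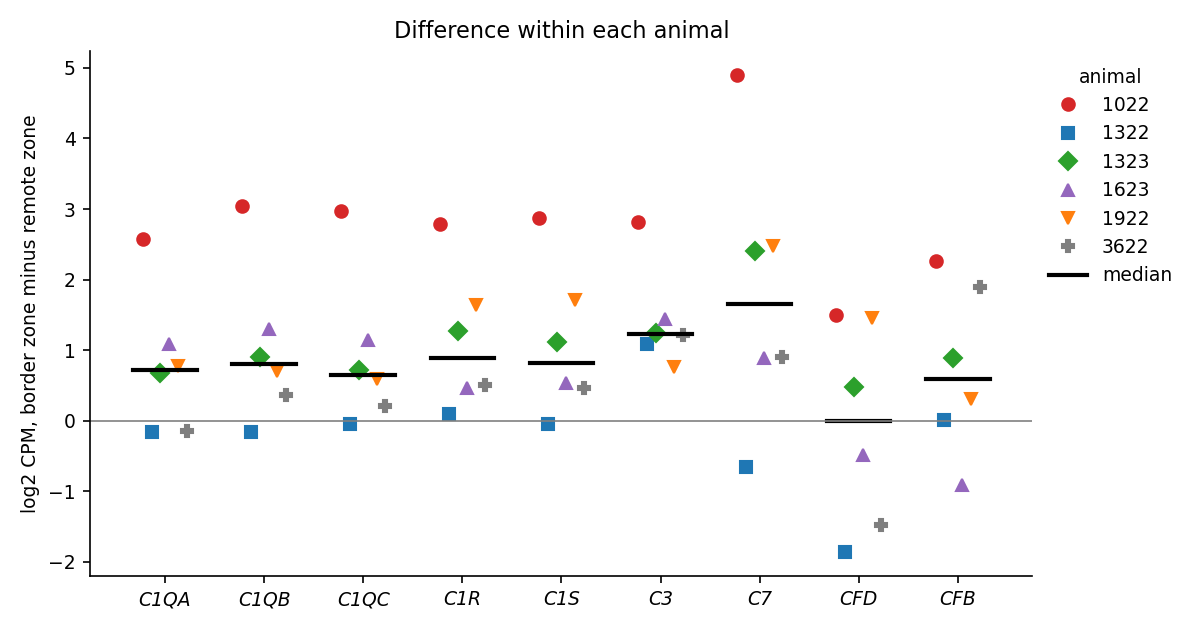
Difference in log2 CPM between border zone and remote zone within each animal, for the 9 complement genes. Points are the animals and the bar is the median of 6. Animal 1022 had the largest difference for all 9 genes, and animal 1322 the lowest for 7 of them, while the differences of C3 lay above 0 in every animal.

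The order of the animals showed how the members differed among themselves. Animal 1022 had the largest difference between regions for all 9 genes, and animal 1322 the lowest for 7. The second largest difference was in animal 1623 for C1QA, C1QB, C1QC and C3, and in animal 1922 for C1R, C1S, C7 and CFD. All 9 genes were higher in the border zone of animals 1022, 1323 and 1922, and 3 were in that of animal 1322, one of them CFB with equal counts in both libraries. Summed over the 9 genes, the border zone of animal 1022 had 2899 CPM, the other border zone libraries 357.7 to 848 CPM, and the remote zone libraries 317 to 572 CPM.

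Of the other complement genes, 48 were listed, 39 had an identifier and 26 were tested. Those without an identifier in the table used, such as CD46, CD55, CD59 and CR1, were not analysed here. C4A and CFI rose in the border zone and were the 2 of the 26 that passed the threshold, against 2.07% of all genes. Neither passed with the animal as a block. Over the 26 genes the median log2 fold change was 0.76, and 18 values were positive, against 7385 of 13844 over all genes. At an unadjusted p under 0.05 there were 15 of 26, against 24.7%. The members and these genes were listed with earlier results of these data known.

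**Figure D3:**
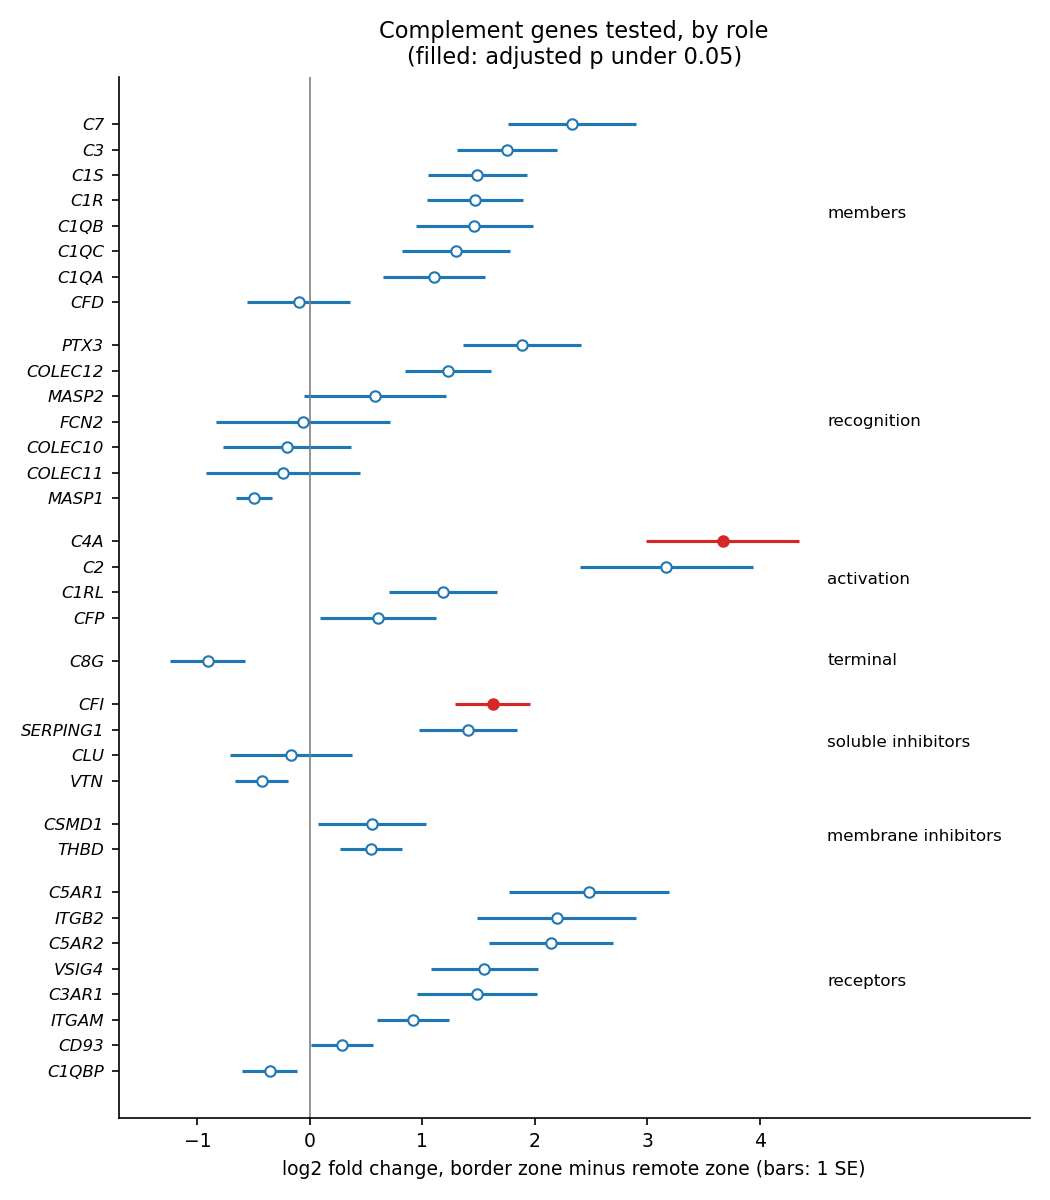
Log2 fold change of border zone against remote zone for the 34 complement genes tested, grouped by role, with bars of 1 SE (edgeR, 6 libraries per region). Filled points, C4A and CFI, had an adjusted p under 0.05, and 7 of the 8 members lie between 1.11 and 2.33.

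C4A and C2, which C1s cleaves to form the enzyme that acts on C3, had larger fold changes than any member. C4A was between 5.26 and 111 CPM in the border zone (median 19.6) and between 1.45 and 3.55 CPM in the remote zone (median 2.14), with no overlap of the regions. It rose by a log2 fold change of 3.67 (SE 0.68, edgeR adjusted p = 0.0276, and 0.0703 with the block) and was higher in 6 of 6 animals. Over all genes tested, 2.69% had no overlap (1.99% with the border zone higher), and 11.7% were higher in 6 of 6 animals. Without animal 1022 the log2 fold change of C4A was 2.52, with an edgeR adjusted p = 0.0151, and without animal 1323, 1623, 1922 or 3622 it did not pass. C2 had 2.53 to 101 CPM in the border zone (median 9.21) and 1.40 to 5.19 CPM in the remote zone (median 2.29), higher in 6 of 6 animals. Its log2 fold change of 3.17 (SE 0.77) missed the threshold with an edgeR adjusted p = 0.0501, and it passed without animal 1022 (1.99, edgeR adjusted p = 0.0228) or without animal 1322 (3.33, edgeR adjusted p = 0.0413). All 4 tested genes of this group, which includes C1RL and properdin (CFP), had positive values. C5 was not tested, with at most 1.04 CPM.

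Among the soluble inhibitors, CFI, the protease that inactivates C3b and C4b, rose by 1.62 on the log2 scale (SE 0.33, edgeR adjusted p = 0.0320, and 0.0691 with the block). Its border zone libraries had 8.11 to 28.8 CPM (median 9.29) and its remote zone libraries 2.87 to 6.12 CPM (median 3.74), with no overlap and with 6 of 6 animals higher. No overlap held for 2.69% of all genes tested, and 6 of 6 animals higher for 11.7%. CFI passed without animal 1022 (1.14, edgeR adjusted p = 0.0276) or 1322 and not without animal 1323, 1623, 1922 or 3622, where the edgeR adjusted p was 0.0825 to 0.108. SERPING1, the inhibitor of C1r and C1s, had 67.6 to 515 CPM in the border zone (median 137) and 44.7 to 128 CPM in the remote zone (median 64.2). Its log2 fold change of 1.40 (SE 0.43, edgeR adjusted p = 0.0879) was close in size to those of C1R and C1S, and it was higher in 5 of 6 animals. Without animal 1022 it was 0.77, with an edgeR adjusted p = 0.249. CLU and VTN, the other tested genes of this group, had values of -0.17 and -0.43. The membrane inhibitors THBD and CSMD1 had 0.54 (SE 0.28) and 0.56 (SE 0.48), with edgeR adjusted p = 0.236 and 0.496.

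Among the receptors, 0 of 8 passed by edgeR, against 2.07% of all genes, and 4 (C5AR1, C5AR2, ITGB2 and VSIG4) by DESeq2, against 10.2%. Their log2 fold changes had a median of 1.52, or 0.96 with the block, with 6 at an unadjusted p under 0.05 by edgeR without the block, against 24.7%. C5AR1, the receptor of the inflammatory fragment C5a, had the largest value without the block, 2.48 (SE 0.71, edgeR adjusted p = 0.0740), from 3.54 to 88.2 CPM in the border zone and 2.50 to 6.42 CPM in the remote zone. ITGB2, the shared chain of the leukocyte integrins that bind C3 fragments, had 2.20 (SE 0.71, edgeR adjusted p = 0.0953), with 192 CPM in the border zone of animal 1022 and a border zone median of 13.6 CPM. The CPM of both was higher in 6 of 6 animals, as for 11.7% of all genes tested, although in animal 1322 the libraries had equal counts of each gene. The size rested largely on animal 1022. Without it the log2 fold changes were 1.14 for C5AR1 and 0.68 for ITGB2, with edgeR adjusted p = 0.196 and 0.261, and with the block they were 1.52 and 1.05. The other C5a receptor, C5AR2, named after its values were seen, had 2.14 (SE 0.55, edgeR adjusted p = 0.0540) and was the larger with the block, at 1.73.

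In the recognition group 0 of 7 passed by edgeR, against 2.07% of all genes, with 3 at an unadjusted p under 0.05, against 24.7%. DESeq2 passed 3 of 7, PTX3 and COLEC12 as higher and MASP1 as lower, against 10.2% of the genes with an adjusted p. By edgeR 3 values were positive and 4 negative, with a median of -0.06, or 0.17 with the block, where FCN2, a ficolin of the lectin pathway, turned from -0.0598 to 0.41. PTX3, a pentraxin that binds C1q, had 1.89 (SE 0.52, edgeR adjusted p = 0.0674), and the scavenger receptor COLEC12 had 1.23 (SE 0.38, edgeR adjusted p = 0.0892). Both were higher in 6 of 6 animals, as were 11.7% of all genes tested. Without animal 1022 they had 1.47 and 0.67, with edgeR adjusted p = 0.202 and 0.210. MASP1, a gene that encodes a protease of the lectin pathway, was named here after its values were seen and went the other way. Counts per gene do not tell its transcripts apart. It had 65.9 to 109 CPM in the border zone (median 89.9) and 110 to 159 CPM in the remote zone (median 122), with no overlap, and a log2 fold change of -0.50 (SE 0.16, edgeR adjusted p = 0.0993). It was lower in 6 of 6 animals. C8G, the only terminal gene other than C7 that was tested, had -0.91 (SE 0.33, edgeR adjusted p = 0.127), lower in 6 of 6 animals, while C6, C8A, C8B and C9 were below the filter with at most 1.28 CPM.

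**Figure D4:**
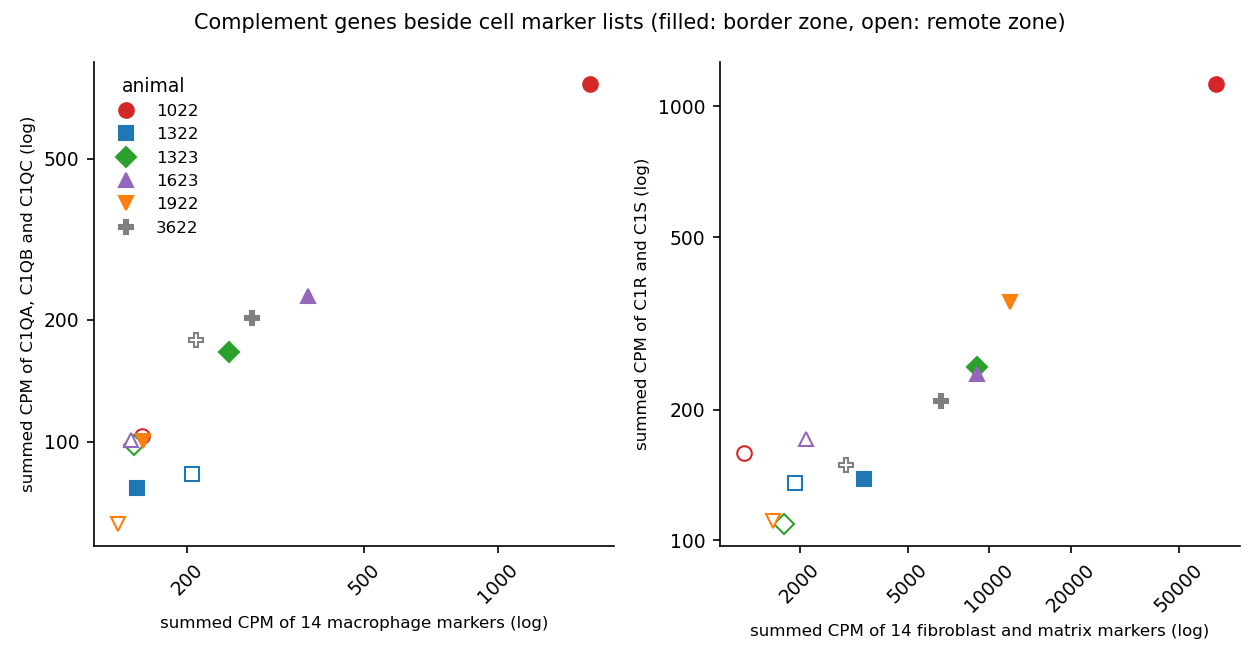
Summed CPM of the C1q chains against 14 macrophage markers (left) and of C1R and C1S against 14 fibroblast and matrix markers (right) on log axes, 1 point per library of 6 animals, filled for the border zone and open for the remote zone. The border zone library of animal 1022 is highest on every axis, at 1613 CPM for the macrophage markers and 68822 CPM for the fibroblast markers.

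Marker lists of other cell types were set beside the complement genes. All 13 macrophage markers tested had positive log2 fold changes (median 1.63). By edgeR 0 of them passed, against 2.07% of all genes, with 12 at an unadjusted p under 0.05, against 24.7%. By DESeq2 6 passed, against 10.2%. Their leading genes, CSF1R and LAPTM5, had 1.63 (SE 0.53) and 1.95 (SE 0.60), with edgeR adjusted p = 0.0969 and 0.0866. The median was 0.99 with the block and 0.62 without animal 1022, where 12 of 13 were positive. Without this animal 5 of 13 were at an unadjusted p under 0.05 by edgeR, against 17.1% of all genes. The 14 macrophage genes summed to 154 to 1613 CPM in the border zone and 139.7 to 210.0 CPM in the remote zone, and none was at 0 in all libraries, though MARCO had at most 0.134 CPM. Set against this sum, the C1q chains differed little, since the log2 ratio of their sum to the macrophage sum differed between the regions of an animal by a median of -0.0445, from -0.45 to 0.49, with 3 of 6 animals higher. This was not particular to macrophages, since the ratio to the smooth muscle and pericyte markers differed by a median of -0.0648, also with 3 of 6 animals higher. The part of macrophages in the C1q levels was not tested.

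All 14 fibroblast and matrix markers were positive (median 2.23), and 10 rose past the threshold, of which POSTN and PI16 also passed with the block. Over all genes 2.06% rose, and 0.296% passed with the block. No gene of any kind passed without animal 1623 or 3622, nor with the block without animal 1623, 1922 or 3622. COL1A1 and COL3A1, the leading genes, rose by 4.05 (SE 0.81) and 2.98 (SE 0.57) on the log2 scale, with edgeR adjusted p = 0.0295 and 0.0276, and neither passed with the block (0.0821 and 0.0814). Without animal 1022 they had 2.37 and 2.01 (edgeR adjusted p = 0.0104 and 0.0130), 9 of 14 passed, against 1.18% of all genes, and the median was 1.53. The list summed to 3458 to 68822 CPM in the border zone and, in the remote zone, to 1242 to 2960 CPM. COL3A1, COL1A1 and COL1A2 were its largest parts, with border zone medians of 3309, 2632 and 1228 CPM. Relative to this sum, C1R and C1S together were lower in 6 of 6 animals, with log2 differences of -2.96 to -0.68. The C1q chains and CFD were also lower relative to this sum in 6 of 6 animals. C7 was lower relative to it in 5 of 6 animals (median -0.66) and C3 in 4 of 6 (median -0.90). Within the list, DPT, MFAP5, DCN, PDGFRA and TCF21 had log2 fold changes of 0.74, 0.75, 1.14, 1.26 and 1.29. These were below those of C1R and C1S (1.47 and 1.49), and the other genes of the list had larger ones. The part of fibroblasts in these levels was not tested.

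For CFD, which fat cells make, the fat cell markers were examined. ADIPOQ, the defining fat cell gene, had 0 counts in 4 of 6 remote zone libraries, those of animals 1322 and 3622, with the highest CFD of that region, among them, and at most 0.955 CPM in the others. In the border zone ADIPOQ was highest in animals 1323 (26.8 CPM) and 1922 (19.8 CPM), with 68.9 and 199 CPM of CFD, and it had 2.68 CPM in animal 1022, with 134 CPM of CFD. FABP4, a fatty acid carrier of fat cells that capillary endothelium also makes, was named after its values were seen. It was highest in the same remote zone libraries of animals 3622 (135 CPM) and 1322 (77.6 CPM) and had at most 33.1 CPM in the other remote zone libraries. PLIN4, the most abundant gene of the list, was lowest in these 2 libraries of that region, at 166 and 197 CPM. The endothelial markers had their highest sums of all 12 libraries there, 729 CPM in animal 3622 and 824 CPM in animal 1322. The adipocyte list summed to 116 to 522 CPM in the border zone and, in the remote zone, to 318 to 603 CPM, most of it PLIN4 and GPD1. By edgeR 0 of 9 genes passed (median -0.0734), against 2.07% of all genes, with 3 at an unadjusted p under 0.05, against 24.7%. ADIPOQ passed with the block (edgeR adjusted p = 0.0476), against 0.296% of all genes, and ADIPOQ and PLIN1 passed by DESeq2, against 10.2%. The part of fat cells in the CFD levels was not tested. Hepatocyte markers were low, with ALB at 1.96 to 3.56 CPM in the border zone and a median of 3.70 CPM in the remote zone, and APOA2, TTR, SERPINA1 and AHSG at 0 in all remote zone libraries and at most 1.59 CPM in the border zone, although APOA1 had 22.6 to 97.0 CPM.

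In the remaining lists no gene passed by edgeR. At an unadjusted p under 0.05, which 24.7% of all genes reached, there were 6 of 8 smooth muscle and pericyte genes, 3 of 7 lymphocyte, 2 of 11 cardiomyocyte and 1 of 2 neutrophil genes. There were 0 in the endothelial, mesothelial and hepatocyte lists. Without animal 1022, where 17.1% of all genes reached it, there were 4 of 8 smooth muscle and pericyte, 0 of 7 lymphocyte, 3 of 11 cardiomyocyte and 1 of 2 neutrophil genes. With all animals, DESeq2 passed 3 smooth muscle and pericyte genes and 1 neutrophil gene as higher and 1 cardiomyocyte gene as lower. It passed 10.2% of the genes with an adjusted p. The median log2 fold change was -0.51 for cardiomyocyte markers (11 of 11 negative, and -0.29 without animal 1022), 0.12 for endothelium (8 of 12 positive, but -0.0480 with 3 of 12 positive without animal 1022), 1.10 for smooth muscle and pericytes (6 of 8 positive, and 0.52 without animal 1022), 0.65 for lymphocytes (7 of 7 positive), 1.14 for neutrophils (1 of 2 positive, and 0.77 without animal 1022) and 0.46 for mesothelium (3 of 3 positive). The cardiomyocyte sum was lower in the border zone of 6 of 6 animals, and the endothelial sum in 3 of 6.

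Profiles of log2 CPM over the 12 libraries were compared after centring, by their root mean square difference, over genes with a symbol. Nearest to the mean of the C1q chains were TTYH2 (0.24), NFKBIE (0.25) and TFEC (0.26), against a median of 1.01 over all genes. For C3 they were CABLES1 (0.25), BICC1 (0.26) and NOTCH2 (0.26). C7 was nearest to MMP2 (0.35), FKBP10 (0.36) and PTK7 (0.36), of which MMP2 cleaves and FKBP10 helps to fold collagens. CFD was nearest to EMILIN3 (0.29), VEGFD (0.37) and CDKN1C (0.40). Their log2 fold changes were 0.15, -0.12 and 0.0424, and the choice by likeness over the same 12 libraries itself brings these near that of CFD. These libraries share animals and regions, so the likeness is a description.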

How the data were processed

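Poly(A)-enriched, nondirectional libraries were read as paired ends of 150 bp. The authors checked reads with FastQC 0.12.1 and MultiQC 1.17, aligned them to Sscrofa11.1 (Ensembl release 113) with STAR 2.7.10a and deposited raw counts per gene from featureCounts 2.16.1, whose options for reads that match several genes are not given in the sources used here. Symbols for 15623 of the 35682 identifiers came from a reference table, and positions, exon lengths and sequences from RefSeq annotation release 106 of the same build.

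The deposited counts were tested with edgeR 4.0.16 (filterByExpr, TMM, robust quasi-likelihood test, region as the only term, Benjamini-Hochberg adjustment over all genes tested) and DESeq2 1.42.0 under R 4.3.3, with Python 3.11.15 for the rest. Each SE came from the fold change and its F statistic. CPM uses TMM library sizes, and log2 CPM a prior count of 2. The code was tested on simulated data. A number in the titles marks an animal, and the 2 libraries of an animal had deviations from the region means that correlated with a mean r of 0.35 across genes (4 of 6 pairs over 0.1), so the animal was also fitted as a block. No pair of libraries agreed within sampling noise (lowest chi-square per gene 20.9 over 66 pairs). Members and lists were chosen with earlier results of these data known. Named genes are the members, other complement genes that passed or had the 2 largest changes of their role group, the 3 nearest genes of 4 profiles, and the 2 leading markers of a list. Alternatives were the block, DESeq2, other scalings and filters, no mitochondrial genes and left-out libraries.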

Additional observations from a re-analysis of the deposited data

Results flagged for a closer look

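In each region the gap between the highest or lowest of the 6 libraries and its neighbour was compared with the range, for the log2 CPM of 20 complement genes, 40 groups in all. Chance sets apart about 1 in 20 groups, and 4 were set apart here. In the border zone library of animal 1022, C3 had a log2 CPM of 8.79 (next 6.64) and CFI of 4.85 (next 3.52). Without this animal both genes passed the edgeR threshold, with edgeR adjusted p = 0.0104 and 0.0276. The library of this animal also had the highest sums of macrophage and of fibroblast markers, and their part was not tested. In the remote zone library of animal 3622, CFB had a log2 CPM of -1.82 (next -1.54) and CSMD1 of -2.20 (next -0.99), both the lowest of the region and both from few counts.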

How the results depend on the processing

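Fits with the block and 1 animal left out were added after the data were seen. Genes past the threshold numbered 287, of which 0 were members and 2 other complement genes. The replicate block, with animals as pairs, gave 41, 0 and 0, so it lost C4A and CFI. The DESeq2 Wald test gave 1719, 4 and 12, and library totals 1551, 6 and 11. The median fold change over all genes (log2) was 0.04, and 0.32 with library totals. With no filter there were 139 genes, 0 members and 1 other gene, and with at least 10 counts in every library 149 genes in all. Without the border zone library of animal 3622 there were 156 genes, 0 members and 2 others. With each animal left out, without and with the block, the counts ranged from 0 to 856 genes, 0 to 1 member and 0 to 4 others. With the block it was 51 genes without animal 1322, 856 without 1022 and 10 or fewer otherwise. Without the block it was 163 genes without animal 1022, 519 without 1322, 3 without 1323, 15 without 1922, and 0 without 1623 or 3622, where edgeR gave 2662 and 2448 genes at an unadjusted p below 0.05. The member that passed was C3 without animal 1022 (also with the block) and C7 without animal 1322. The cause was not tested.

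Of the genes put through all alternatives, only CFD changed sign. Its log2 fold change was 0.31 with library totals, 0.30 without animal 1322, 0.19 without animal 3622 and, with the replicate block, 0.31, 0.0590 and 0.26 without animals 1322, 1623 and 3622, the range over left-out animals being -0.55 to 0.31. Its median difference within animals was 0.16 with library totals and 0.48 without animal 1322, 1623 or 3622 (range -0.48 to 0.48). Of 378 values of named genes under the alternatives, 322 kept direction and side of the threshold, 29 passed newly, 21 no longer passed and 6 were those of CFD. CFB, with at most 50 counts in a library, is limited by depth.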

Other observations

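C4BPA, the chain of the C4b-binding inhibitor, was below the filter and was singled out after its values were seen. It had 0.0971 to 10.2 CPM in the border zone (median 1.09) and 0 to 0.267 CPM in the remote zone (median 0.0777), with at most 308 counts in a library, and was higher in 6 of 6 animals. DESeq2, run on all genes with a count, gave it an adjusted p = 0.000836. Of the other complement genes below the filter, MBL2 had 0 counts in all 12 libraries, CPN1 at most 2 and C8B at most 5.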
